A study of Homo sapiens with 6 samples.

Results

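Brachyury (BRA), the T-box transcription factor of the primitive streak, was mapped by ChIP-seq in H9 cells, an established human embryonic stem cell line, and the sites described here are those on chromosome 17. Cells were differentiated for 36 h in a chemically defined medium with 20 ng/ml FGF2 and 10 μM LY294002, a PI3 kinase inhibitor. The medium called FLyA added 100 ng/ml activin A and gave endoderm progenitors, and the medium called FLyB added 10 ng/ml BMP4 and gave mesoderm progenitors. Each medium had 1 library with an R&D Systems antibody and 1 with a Santa Cruz antibody against BRA. The 2 libraries of input DNA are not analysed here. The members are all peaks on chromosome 17 of the R&D Systems lists, 3051 of the 49551 peaks of both media on all chromosomes. FLyA held 1393 of them and FLyB held 1658. The chromosome was selected on its peak count in these same lists, so its excess of peaks is given as a description, with no test.

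BRA binds DNA through its T-box domain and is needed for mesoderm to form. It is expressed in the early primitive streak, from which endoderm and mesoderm both arise, and activin and BMP4 signal to these fates through different SMAD proteins. Chromosome 17 carries many genes of this stage. Its long arm holds the HOXB cluster, which patterns the body axis, the T-box genes TBX2 and TBX4, the WNT ligand gene WNT3, the WNT feedback gene AXIN2, the BMP antagonist gene NOG and the homeobox genes LHX1 and MEOX1. Its short arm holds HES7, a gene of the somite clock. The deposited positions are on the hg19 build, and the gene table used here is on GRCh38, so no peak was assigned to a gene and no sequence of a peak was read.

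Every deposited peak is 400 bp wide and has a position only, with no height, score or p-value. The depth of each library is therefore not known in numbers, and peaks could not be ranked. Shares of peaks are given with exact 95% intervals by the Clopper-Pearson method. They cover counting error only and treat neighbouring peaks as independent. With 1 library per medium and antibody, no difference was tested. The study treated its antibodies as replicate experiments, so values are given for each, and it described the Santa Cruz libraries as poorer in unique reads and in signal over noise. The part of this in any difference between antibodies was not tested.

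Chromosome 17 had more peaks per Mb than any other of the 22 autosomes in all 4 lists. In the R&D Systems lists it held 17.2 peaks per Mb in FLyA and 20.5 in FLyB, where length was measured to the last peak of the 4 lists, at 81.0 Mb. The other 21 autosomes together held 8.38 and 7.59. The density on chromosome 17 was thus 2.05 times that of the other autosomes in FLyA and 2.70 times in FLyB. By this length, the next autosome in both media was chromosome 20, with 10.5 peaks per Mb in FLyA and 10.4 in FLyB. The lowest was chromosome 21, with 4.89 and 4.80. The step from chromosome 20 to chromosome 17 was 1.64-fold in FLyA and 1.97-fold in FLyB. Length to the last peak also counts any stretch before the first peak of an autosome. The order of the other autosomes and this step were not recomputed without such stretches.

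Chromosome 17 was also the densest autosome with the Santa Cruz antibody, whose lists give no members, while the autosome in the next place differed. Its lists held 205 peaks on chromosome 17 in FLyA and 200 in FLyB, or 2.53 and 2.47 per Mb. The other autosomes held 0.762 and 0.963 per Mb, which makes chromosome 17 3.32 times as dense in FLyA and 2.56 times in FLyB. Of all autosomal Santa Cruz peaks, 8.78% (7.67 to 10.0%) lay on chromosome 17 in FLyA and 6.92% (6.02 to 7.90%) in FLyB, against 2.82% of the autosomal length. By the same length, the next autosome was chromosome 10 in FLyA, with 1.08 per Mb, and chromosome 18 in FLyB, with 1.36. Input reads were not analysed here, so signal outside the peaks of chromosome 17 was not compared with that of other chromosomes.

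**Figure D1:**
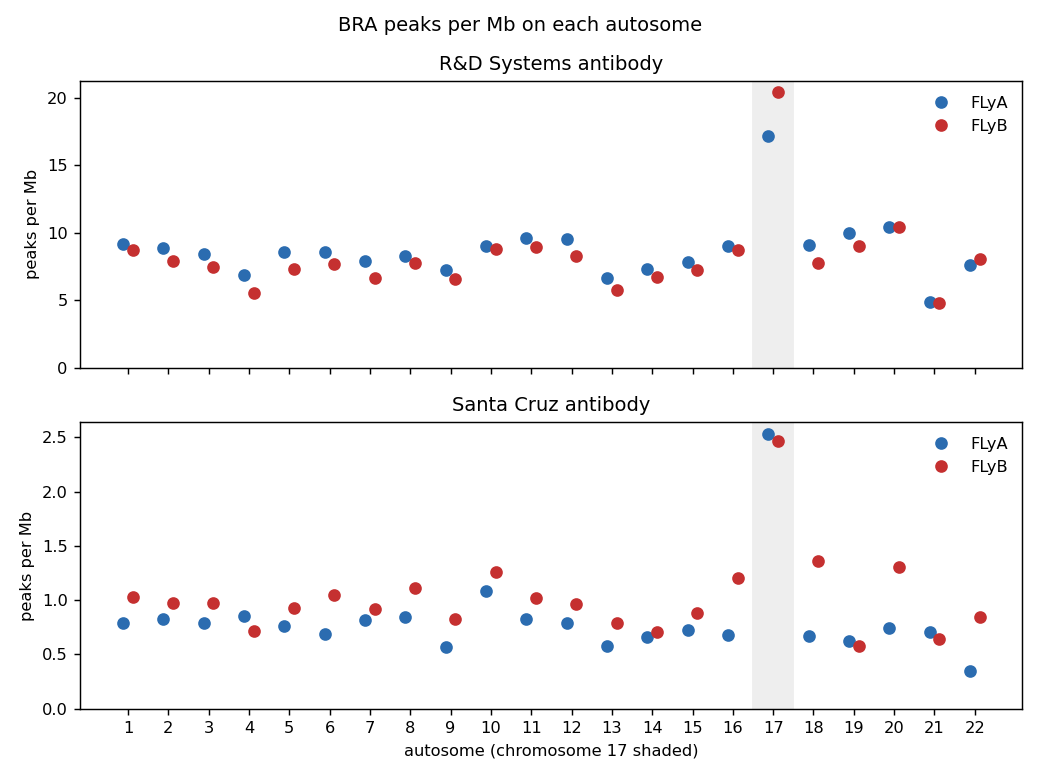
Peaks per Mb on each autosome (length measured to the last peak) in the R&D Systems lists (top) and the Santa Cruz lists (bottom), 1 point per list, with chromosome 17 shaded. Chromosome 17 is at 17.2 and 20.5 peaks per Mb in the R&D Systems lists and at 2.53 and 2.47 in the Santa Cruz lists, above every other autosome in each.

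The excess was present in each kind of peak that could be set apart by overlap, and its size differed between them. Peaks were called shared where they overlapped by at least 1 bp. FLyB-only peaks, those without a FLyA peak, were 2.66 times as dense on chromosome 17 as on the other autosomes, with 1045 peaks. FLyA peaks shared with FLyB were 2.75 times as dense, with 608 peaks. FLyA-only peaks were 1.71 times as dense, with 785 peaks. The excess in FLyA was thus lower among the sites not found in FLyB than among those shared with it. More FLyB peaks leave fewer FLyA peaks unshared. The chromosome was chosen on the counts of both lists, so this contrast is no separate trait of it. Santa Cruz FLyA peaks had an excess of 3.20 times where they lay on an R&D Systems FLyA peak and of 3.38 times where they did not. For Santa Cruz FLyB peaks these values were 2.61 and 2.40. In each of these groups chromosome 17 ranked highest of the autosomes.

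The balance of the media on chromosome 17 depended on the antibody. With the R&D Systems antibody it held 1.19 FLyB peaks per FLyA peak, the highest ratio of any autosome, against 0.905 on the other autosomes together. Chromosome 22 came next, with 1.05, and chromosome 4 was lowest, with 0.804. With the Santa Cruz antibody it held 0.976 FLyB peaks per FLyA peak, rank 19 of the 22 autosomes, against 1.26 on the other autosomes. FLyB peaks made up 54.3% (52.6 to 56.1%) of the R&D Systems peaks and 49.4% (44.4 to 54.4%) of the Santa Cruz peaks of chromosome 17. On the other autosomes FLyB made up 47.5% (47.0 to 48.0%) and 55.8% (54.4 to 57.2%). Relative to the other autosomes, the antibodies thus placed chromosome 17 on opposite sides.

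The sites lay along the whole chromosome. The short arm was taken to end at 22 Mb and the long arm to start at 25 Mb, on either side of the centromere. The short arm held 356 FLyA and 425 FLyB peaks, or 16.2 and 19.3 per Mb. The long arm held 1036 and 1233, or 18.5 and 22.01 per Mb. Against the other autosomes, the R&D Systems peaks were 1.93 times (FLyA) and 2.55 times (FLyB) as dense on the short arm, and 2.21 and 2.90 times on the long arm. The excess was therefore present on both arms in both media. The short arm had 0.875 times the density of the long arm in FLyA and 0.878 times in FLyB.

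The Santa Cruz lists showed the same order of arms. They held 50 FLyA and 47 FLyB peaks on the short arm, 2.98 and 2.22 times as dense as on the other autosomes. On the long arm they held 154 and 153 peaks, 3.61 and 2.84 times as dense. Between the arms lay the longest stretch of the chromosome without a peak in any list, from 22252413 to 25322063, a gap of 3.07 Mb. A single R&D Systems FLyA peak, at chr17:22252013-22252412, bordered it, and a Santa Cruz FLyA peak at chr17:22183098-22183497 lay close by. No other stretch without peaks was longer than 0.625 Mb.

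Counts per window showed how evenly the excess was spread. In whole windows of 5 Mb, counted from position 1, chromosome 17 held 18 to 122 FLyA peaks with a median of 93, and the 526 windows of the other autosomes held a median of 42. In FLyB the 16 windows held 29 to 176 peaks with a median of 94.5, against a median of 36 elsewhere. The window from 20 to 25 Mb, which contains the gap, was the lowest in both media. The other 15 windows lay above the median of the other autosomes in both R&D Systems lists. In each Santa Cruz list 15 of 16 windows did so, the exception being 20 to 25 Mb in FLyB and 0 to 5 Mb in FLyA, where 4 peaks equalled the median. The highest whole window elsewhere held 99 FLyA or 100 FLyB peaks. With partial windows at chromosome ends included, 6 windows of chromosome 17 exceeded every window elsewhere in FLyA and 6 in FLyB. The window from 35 to 40 Mb, with 120 FLyB peaks, exceeded the highest whole window elsewhere but not every partial one.

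The windows of 5 Mb ranked differently in the media. The most FLyA peaks lay from 70 to 75 Mb, with 122 FLyA and 147 FLyB peaks. The most FLyB peaks lay from 45 to 50 Mb, with 113 FLyA and 176 FLyB peaks, followed by 40 to 45 Mb with 113 and 170, and 75 to 80 Mb with 102 and 169. Outside the window with the gap, the fewest FLyB peaks lay from 50 to 55 Mb, with 61 FLyA and 44 FLyB peaks. The window from 65 to 70 Mb held nearly as few, with 62 FLyA and 46 FLyB peaks. With the gap window left out, the densest and the sparsest window in FLyB thus adjoined each other on the long arm.

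In windows of 1 Mb the median was 18 FLyA and 19 FLyB peaks on chromosome 17, against 8 and 7 on the other autosomes. Of its 79 whole windows with a peak in any list, 73 lay above the median of the other autosomes in FLyA and 69 in FLyB. The window with most FLyA peaks ran from 7 to 8 Mb on the short arm and held 37 FLyA and 39 FLyB peaks, of which 19 and 21 were shared. The next FLyA windows ran from 55 to 56 Mb, with 36 FLyA and 28 FLyB peaks, and from 46 to 47 Mb, with 34 and 53. The window from 46 to 47 Mb also held the most FLyB peaks, and no 1 Mb window of another autosome held more than 44. In FLyA 1 window elsewhere, with 39 peaks, exceeded all those of chromosome 17. The next FLyB windows ran from 75 to 76 Mb, with 52 FLyB and 25 FLyA peaks, and from 47 to 48 Mb, with 47 and 26. The 3 FLyB windows were richer in FLyB than in FLyA, whereas the first FLyA window held nearly equal numbers.

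**Figure D2:**
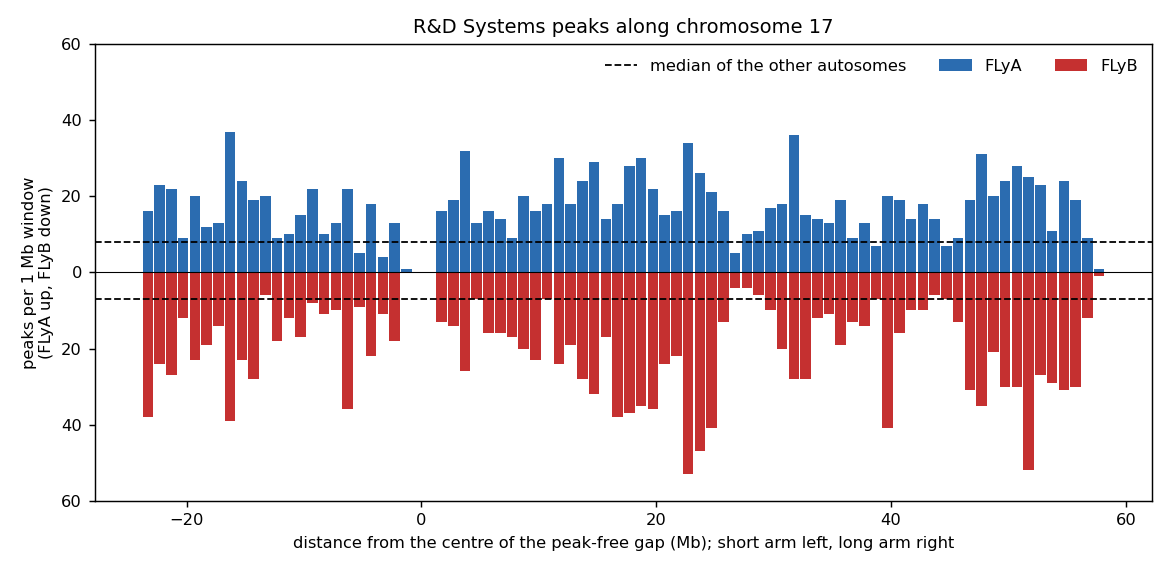
R&D Systems peaks per 1 Mb window of chromosome 17, FLyA upwards and FLyB downwards, by distance in Mb from the centre of the longest stretch without peaks, with the median windows of the other autosomes (8 FLyA, 7 FLyB) as dashed lines. Most windows on both arms lie beyond the dashed lines, 73 of 79 in FLyA and 69 of 79 in FLyB.

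R&D Systems counts of FLyA and FLyB rose and fell together along the chromosome, and Santa Cruz counts did so less closely. Over the 79 windows of 1 Mb, Pearson's r between the R&D Systems counts was 0.71 and Spearman's rho 0.72, and over 2590 windows of the other autosomes both were 0.72. Between the Santa Cruz counts, which are far lower, r was 0.25 and rho 0.26 on chromosome 17, against 0.28 and 0.15 elsewhere. These are descriptions over neighbouring windows. The lists were counted in the same windows, whose base composition and mappability were not measured. Between the antibodies, r over the same 79 windows was 0.40 in FLyA and 0.54 in FLyB, against 0.19 and 0.53 on the other autosomes.

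Of the FLyA peaks on chromosome 17, 608 overlapped a FLyB peak, a share of 43.6% (41.0 to 46.3%), whereas 32.5% of FLyA peaks on the other autosomes did so (31.9 to 33.1%). This was the highest share of the 22 autosomes. Chromosome 22 was next, at 41.6% (36.7 to 46.7%), an interval that contains the share on chromosome 17. The intervals of chromosome 19, at 38.5% (34.6 to 42.6%), and chromosome 21, at 34.9% (28.8 to 41.4%), also overlapped that of chromosome 17. Chromosome 13 was lowest, at 28.9%. Of the FLyB peaks on chromosome 17, 613 overlapped a FLyA peak, a share of 37.0% (34.6 to 39.3%), against 36% on the other autosomes (35.3 to 36.6%). This was rank 6 of the autosomes, between 42.4% on chromosome 19 and 33.3% on chromosome 13. The share on chromosome 17 therefore stood above that of the other autosomes together when counted from FLyA, though not apart from every single autosome. Counted from FLyB, it was close to that of the other autosomes together. The arms had like shares with overlapping intervals, at 43.5% (38.3 to 48.9%) and 43.7% (40.7 to 46.8%) of FLyA peaks on the short and the long arm and 37.4% (32.8 to 42.2%) and 36.8% (34.1 to 39.6%) of FLyB peaks.

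**Figure D3:**
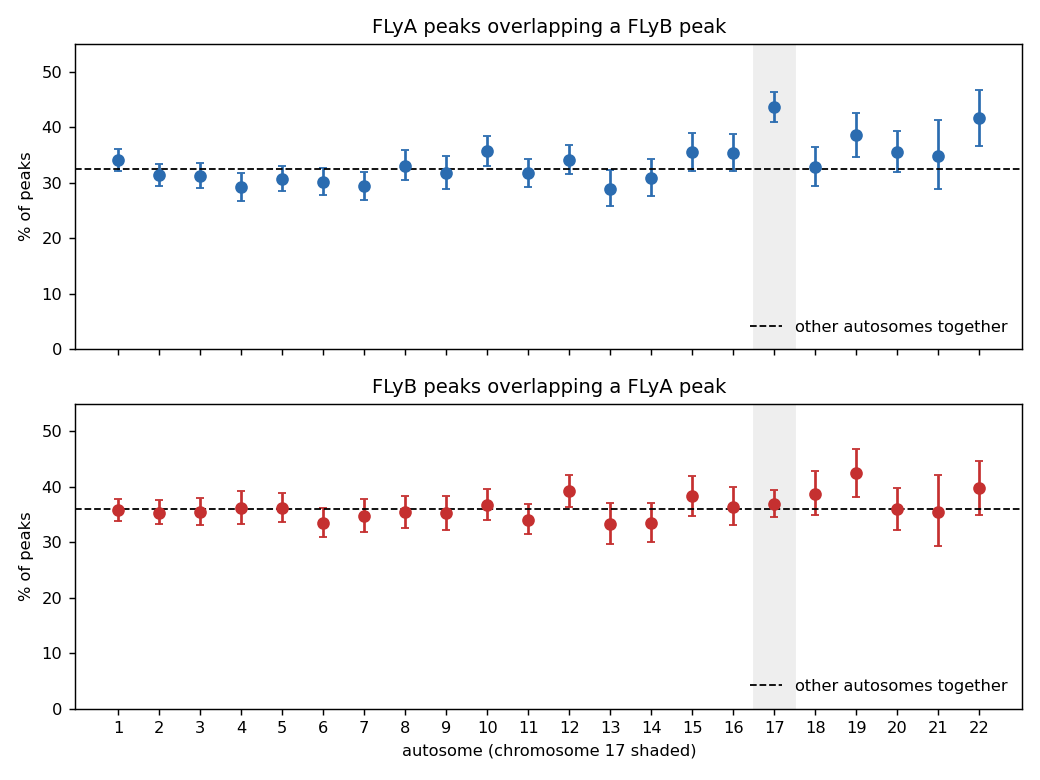
Share of R&D Systems peaks that overlap a peak of the other medium, on each autosome, with exact 95% intervals that cover counting error only and the share on the other 21 autosomes together as a dashed line. Chromosome 17 (shaded) is highest from FLyA, at 43.6% against 32.5%, and near the line from FLyB, at 37.0% against 36%.

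The overlap was also counted by how many peaks of the other medium the 1 Mb window held. In windows with 10 to 19 FLyB peaks, 39.1% of FLyA peaks on chromosome 17 (34.2 to 44.1%) and 38.4% on the other autosomes (37.4 to 39.4%) overlapped a FLyB peak. In windows with 20 to 29 FLyB peaks the shares were 44.0% (39.1 to 49.04%) and 44.6% (42.6 to 46.7%). In windows with 30 or more they were 53.7% (49.1 to 58.3%) and 53.0% (48.7 to 57.3%). At up to 9 FLyB peaks they were 20.1% (13.7 to 27.9%) and 24.9% (24.1 to 25.7%). At each FLyB density, the interval on chromosome 17 thus contained the FLyA share of the other autosomes.

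Counted from FLyB, chromosome 17 lay at or below the other autosomes in windows of like FLyA density. In windows with 20 to 29 FLyA peaks, 36.3% of its 620 FLyB peaks (32.5 to 40.2%) overlapped a FLyA peak, against 43.4% elsewhere (41.3 to 45.5%). In windows with 10 to 19 FLyA peaks the shares were 36.2% (32.6 to 39.96%) and 38.9% (38.0 to 39.9%). With 30 or more FLyA peaks they were 45% (38.6 to 51.5%) and 53.7% (44.4 to 62.8%), and with up to 9 they were 29.0% (21.2 to 37.9%) and 29.8% (28.8 to 30.8%). The intervals were apart only at 20 to 29 FLyA peaks. The counts that define these windows also enter the overlap, so the shares are a description.

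**Figure D4:**
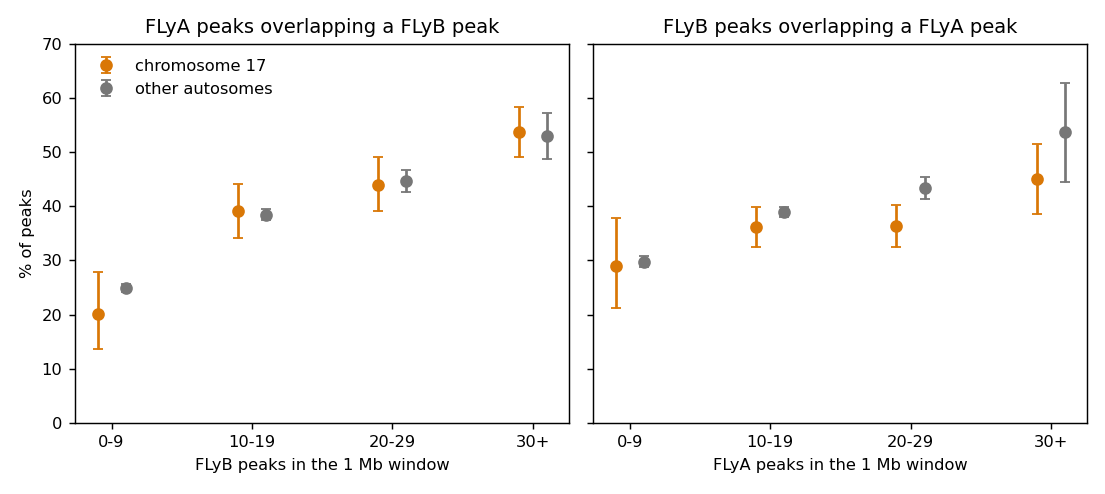
Share of FLyA peaks overlapping a FLyB peak (left) and of FLyB peaks overlapping a FLyA peak (right), by the number of peaks of the other medium in the 1 Mb window, on chromosome 17 and on the other autosomes, with exact 95% intervals for counting error. The FLyA shares lie close together at each density, and the FLyB share on chromosome 17 is lower at 20 to 29 FLyA peaks, at 36.3% against 43.4%.

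Shared sites were placed as precisely on chromosome 17 as elsewhere. The midpoints of shared peaks lay a median of 41 bp apart, against 38 bp on the other autosomes, and 59.2% (55.2 to 63.1%) of shared FLyA peaks lay within 50 bp of the FLyB midpoint, against 60.7% (59.6 to 61.8%). Peaks found in 1 medium lay nearer to a peak of the other medium than elsewhere. FLyA-only peaks were a median of 16.97 kb from the nearest FLyB peak, against 37.8 kb on the other autosomes. FLyB-only peaks were a median of 12.8 kb from the nearest FLyA peak, against 24.45 kb. A peak of the other medium lay within 10 kb of 37.5% (34.1 to 40.9%) of FLyA-only and 42.6% (39.6 to 45.6%) of FLyB-only peaks, against 23.3% and 30.2% elsewhere. Such distances shorten where peaks are denser, and the chromosome was chosen for its peak count, so they are no further trait of it. They were not set against windows of like density.

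The balance of single-medium sites varied between windows. The whole chromosome held 1045 FLyB-only and 785 FLyA-only peaks, against 13574 and 15816 on the other autosomes. Leads by window were not compared with those on the other autosomes. FLyB-only peaks outnumbered FLyA-only peaks in 49 of 82 windows of 1 Mb and were outnumbered in 23, with equal numbers in 10, of which 2 held no peak. The largest excess of FLyB-only peaks, from 75 to 76 Mb, was 36 against 9. Excesses of 21 peaks followed in 3 windows, from 0 to 1 Mb at the short-arm end (24 FLyB-only and 3 FLyA-only), from 47 to 48 Mb (32 and 11) and from 63 to 64 Mb (32 and 11). FLyA-only peaks led by the most from 10 to 11 Mb, with 18 against 4, from 14 to 15 Mb, with 20 against 6, and from 34 to 35 Mb, with 14 against 3. In the windows from 10 to 11 and from 14 to 15 Mb only 2 FLyA peaks each were shared. The largest FLyB leads thus lay at the short-arm end and on the long arm, and 2 of the 3 largest FLyA leads on the short arm.

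**Figure D5:**
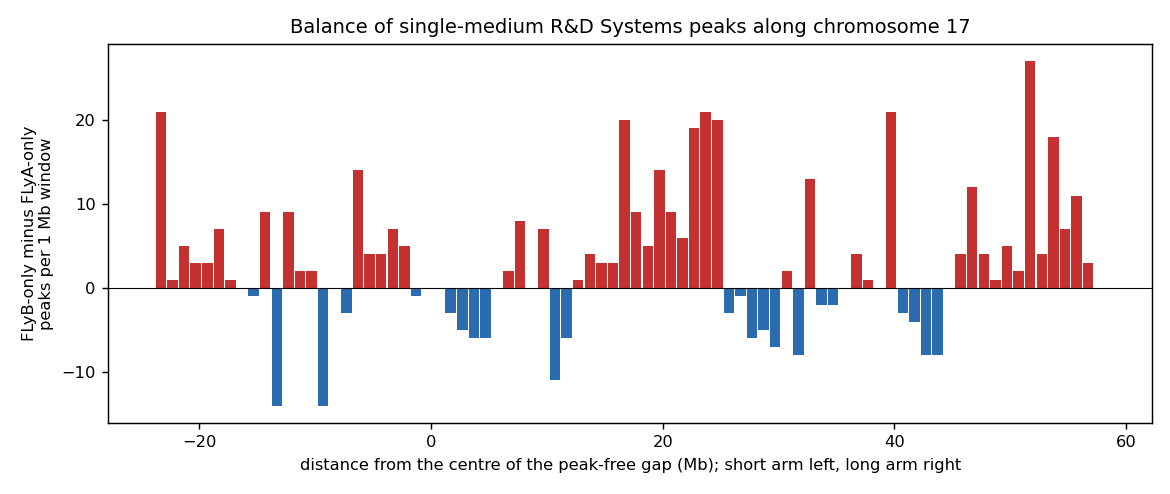
FLyB-only minus FLyA-only R&D Systems peaks in each 1 Mb window of chromosome 17, by distance in Mb from the centre of the longest stretch without peaks, with bars up where FLyB-only peaks are more numerous. The highest bar stands for 36 FLyB-only against 9 FLyA-only peaks, and the pair of lowest bars on the short arm for 18 against 4 and 20 against 6 the other way.

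By window of 5 Mb, FLyB peaks outnumbered FLyA peaks in 13 of 17 windows with the R&D Systems antibody. The 4 with more FLyA peaks ran from 10 to 15, 25 to 30, 50 to 55 and 65 to 70 Mb. With the Santa Cruz antibody, FLyB led in 9 and FLyA in 8 windows, and the direction was the same with both antibodies in 11. Some Santa Cruz directions rest on counts as close as 12 and 13, or 0 and 1 in the partial last window. Directions in windows of the other autosomes were not compared. The window from 10 to 15 Mb held 76 FLyA and 61 FLyB peaks with the R&D Systems antibody and 20 and 6 with the Santa Cruz antibody. The windows from 50 to 55 Mb (13 FLyA and 7 FLyB) and from 65 to 70 Mb (13 and 8) also led in FLyA with the Santa Cruz antibody, and that from 25 to 30 Mb (12 and 13) did not. At the short-arm end, from 0 to 5 Mb, FLyB led with both, by 124 to 90 and by 15 to 4. From 75 to 80 Mb the antibodies were opposed, with 169 FLyB and 102 FLyA peaks for R&D Systems and 8 and 13 for Santa Cruz.

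Agreement between the antibodies was compared peak by peak. In FLyA, 63 of the R&D Systems peaks on chromosome 17 overlapped a Santa Cruz peak, a share of 4.52% (3.49 to 5.75%), against 2.91% on the other autosomes (2.70 to 3.14%). In FLyB the count was 161, a share of 9.71% (8.33 to 11.2%), against 10.1% (9.66 to 10.5%). Of the Santa Cruz peaks on chromosome 17, 30.7% (24.5 to 37.5%) lay on an R&D Systems peak in FLyA and 80.5% (74.3 to 85.8%) in FLyB, against 31.9% and 79.2% elsewhere. Within the Santa Cruz lists, 8.78% (5.29 to 13.5%) of FLyA peaks overlapped a FLyB peak and 9% (5.42 to 13.9%) of FLyB peaks a FLyA peak, against 10.3% and 8.21% elsewhere. Across media, R&D Systems FLyA peaks overlapped a Santa Cruz FLyB peak more often than a FLyA peak, with 87 peaks or 6.25% (5.03 to 7.65%), against 4.94% elsewhere (4.66 to 5.22%). Of R&D Systems FLyB peaks, 58 overlapped a Santa Cruz FLyA peak, or 3.50% (2.67 to 4.50%), against 2.51% elsewhere (2.31 to 2.73%). Of these shares, the one of R&D Systems FLyA peaks on Santa Cruz FLyA peaks had an interval apart from that of the other autosomes, and higher values across media had intervals that overlapped. The Santa Cruz FLyA list is also the one in which chromosome 17 had the largest excess. With the Santa Cruz antibody 182 peaks were found in FLyB only, of which 78 lay on an R&D Systems FLyB-only peak and 5 on a FLyA-only peak. On the other autosomes 1002 and 43 of 2470 did so. Another 187 were found in FLyA only, of which 15 lay on an R&D Systems FLyA-only peak and 11 on a FLyB-only peak. The counts elsewhere were 209 and 51 of 1910.

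Sites found in all 4 lists numbered 18, or 1.29% (0.768 to 2.03%) of the R&D Systems FLyA peaks of the chromosome, against 0.836% elsewhere. The long arm held 16 of them and the short arm 2, at chr17:1952098-1952497 and chr17:19357409-19357808. Of all FLyA peaks, the long and the short arm held 1036 and 356 with the R&D Systems antibody and 154 and 50 with the Santa Cruz antibody. Most peaks of any kind thus lay on the long arm, and whether these sites depart from that was not tested. The starts of the 4 peaks of a site lay 7 to 190 bp apart, with a median of 69 bp. The closest agreement was at chr17:33477986-33478385, where they differed by 7 bp. Neighbouring sites of this kind on the long arm lay at chr17:55951869-55952268, chr17:55986805-55987204 and chr17:56004253-56004652.

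Spacing restates the density for which the chromosome was chosen, and it is given to show the scale at which its sites lie. Neighbouring peaks of the same list were a median of 29.2 kb apart in FLyA and 18.6 kb in FLyB, against 55.5 and 48.1 kb on the other autosomes. To locate its densest groups, R&D Systems peaks of both media were chained where starts were at most 10 kb apart. Groups of 8 or more peaks numbered 39 on chromosome 17 and held 13.2% of its peaks, against 3.52% of the peaks of the other autosomes. A fixed distance gives more and larger groups where peaks are denser, so these counts are no further trait of the chromosome, and windows of like density were not compared. The largest group elsewhere had 28 peaks and the largest on chromosome 17 had 18.

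The groups differed in their mix of media. The pair of largest groups each held 18 peaks. That at chr17:35270332-35306881 held 7 FLyA and 11 FLyB peaks, with 0 Santa Cruz FLyA and 3 Santa Cruz FLyB peaks, and that at chr17:55927287-55953817 held 9 of each, with 3 FLyA-only and 3 FLyB-only peaks and 2 Santa Cruz peaks in each medium. The group at chr17:63542146-63573466 held 4 FLyA and 11 FLyB peaks, of which 8 were FLyB-only, and 2 Santa Cruz FLyA peaks and 0 Santa Cruz FLyB peaks. A group of 13 peaks at chr17:46644495-46679350 held 11 FLyB and 2 FLyA peaks, both FLyA peaks being shared, and had no Santa Cruz peak. The group at chr17:37819965-37861726 was the other way round, with 8 FLyA peaks, 6 of them FLyA-only, 4 FLyB peaks and 1 Santa Cruz peak in each medium.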

How the data were processed

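BRA ChIP-seq libraries of H9-derived progenitors were sequenced on a Genome Analyzer II. Per the labels, the submitters' processing notes name Bowtie 0.12.7 and the hg19 build. The authors called peaks with MACS and deposited each as chromosome, start and end. A threshold of 1e-12 stands in the track lines of the Santa Cruz lists. The threshold for R&D Systems, the control library and how duplicate reads were handled are not given in the sources used here. A lower threshold or deeper library gives more peaks in a list.

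Samples were grouped by medium and antibody, as their titles give them. Overlaps, intervals and window counts were computed in Python 3.11.15 (NumPy 2.4.6, SciPy 1.17.1), tested on simulated lists, and overlap counts were checked against bedtools 2.31.1. The plots used matplotlib 3.10.9. A peak belongs to the window of its start, and positions are counted from 1. The windows named are those with the 3 highest counts in each medium and the 3 largest differences either way, and 4 where values tie. The members, gene list, density classes and grouping rule were chosen with earlier results of these data known, and the classes of overlap, 5 Mb windows and peak groups named were chosen after their values were seen. Distances to genes, T-box motifs and peaks per gene were not computed, since the gene table and promoters used here are on GRCh38, which also holds all 40 genes of the list set out for chromosome 17.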

Additional observations from a re-analysis of the deposited data

How the results depend on the processing

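Of 32 alternatives over 14 values, 18 stayed inside the 95% interval of the reported value, which covers counting error only, and 14 left it. Without the 5 Mb window with most R&D Systems peaks of both media together, from 45 to 50 Mb, which is the densest in FLyB but not in FLyA, chromosome 17 held 5.18% of autosomal peaks in FLyA (5.61% with it) and 6.53% in FLyB (7.25% with it). In the Santa Cruz lists it held 8.78% and 6.92%, or 3.32 and 2.56 times the density elsewhere. With 200 bp of overlap, the shares overlapping the other medium were 39.7% in FLyA and 33.4% in FLyB, against 30.3% and 33.5% on the other autosomes. With peaks at most 500 bp apart they were 47.1% and 40.7%, against 34.9% and 39.2%. The FLyB share thus moved from just above to just below the other autosomes at 200 bp, while the FLyA share stayed above. In the Santa Cruz lists they were 8.78% (5.29 to 13.5%) in FLyA and 9% (5.42 to 13.9%) in FLyB, against 10.3% and 8.21% elsewhere. The FLyA share was thus below that elsewhere, but both intervals contain the share elsewhere. With the arms split at 25 Mb, which adds the gap to the short arm, the short arm had 0.772 times the density of the long arm in both media. Adding X, merging overlapping peaks of a list, measuring length from the first peak and moving the grids changed no value beyond its interval.

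The chromosome length of hg19, distances to genes, motifs and peaks per gene were not run for want of a genome or annotation of that build. The media can be paired by antibody, which leaves 2 pairs. No paired fit was run, and both antibodies' values are given instead. Without read depth, the absence of a peak in a medium does not show the absence of binding there.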

Other observations

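Neighbouring peaks of the same list overlapped each other in 6 of 1657 pairs on chromosome 17 in R&D Systems FLyB, against 33 of 21179 pairs on the other autosomes, and in 0 of 1392 pairs in R&D Systems FLyA, against 17 of 23412. Counts per 1 Mb window varied more in FLyB than in FLyA. The variance of the R&D Systems counts on chromosome 17 was 6.65 times their mean in FLyB and 3.25 times in FLyA, and on the other autosomes it was 4.80 and 3.20 times. In the window from 46 to 47 Mb, which held the most FLyB peaks, 5 of 53 FLyB peaks and 2 of 34 FLyA peaks overlapped a Santa Cruz peak of their medium, where the shares over the whole chromosome were 9.71% and 4.52%. In the window from 75 to 76 Mb these counts were 6 of 52 and 1 of 25, and in the window from 10 to 11 Mb, led by FLyA, 0 of 6 and 1 of 20. From 0 to 1 Mb, the largest FLyB lead on the short arm, the Santa Cruz lists held 0 FLyA and 2 FLyB peaks.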
